A study of Mus musculus with 7 samples.

Results

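The growth hormone and insulin-like growth factor (IGF) genes of mouse precision-cut liver slices (PCLS) were examined, as 10 genes chosen by name out of the 55487 genes listed in the deposited table. They were the ligand gene Igf1, the 7 IGF binding protein genes Igfbp1 to Igfbp7, the acid-labile subunit gene Igfals and the growth hormone receptor gene Ghr. PCLS are thin discs of living liver that keep hepatocytes, hepatic stellate cells (HSCs), sinusoidal endothelium, macrophages and bile duct cells in their native arrangement. The slices came from livers of healthy adult male Balb/c mice and were kept for 3 days in Williams' Medium E without addition (CTR, 3 libraries) or with valproic acid (VPA, 4 libraries), a histone deacetylase inhibitor given as its sodium salt at 2.5 mM. Both groups shared the strain, the basal medium and the day of collection, and per the study's methods VPA was already in the slicing medium of its group. Glutamine and antibiotics are the medium supplements that the protocol gives, and a slice has no pituitary or pancreas. Per the study's methods a biological repeat is a different liver, but the labels tie no library to a liver, so the p-values measure the spread between these libraries.

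In the body, growth hormone from the pituitary binds its receptor on hepatocytes, and signalling through JAK2 and STAT5B drives transcription of Igf1 and Igfals. Most IGF1 in blood travels in a complex with IGFBP3 or IGFBP5 and the acid-labile subunit, while the other binding proteins form smaller complexes that hold IGFs back from their receptor or deliver them to it. IGFBP1 is made by hepatocytes under insulin-repressed control through FOXO1, and so is known as a short-term regulator of free IGF1 in fasting. IGFBP3, IGFBP4, IGFBP5, IGFBP6 and IGFBP7 are made to different extents by endothelial, mesenchymal and parenchymal cells, and IGFBP7 binds IGFs weakly.

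The libraries read the 3′ end of polyadenylated RNA, so levels were not divided by gene length. They held from 1400887 to 4773750 counts on genes. Levels are given as CPM, the counts of a gene divided by the TMM-adjusted library size and scaled to counts-per-million units. Where a gene had 0 counts, its level may have reached that of 3 counts, or 0.591 CPM in the deepest library and 2.41 CPM in the shallowest, and this limit covers counting error only. Zeros also fell on genes that were well counted elsewhere. Among genes with a median of at least 20 counts in the other libraries, 58 to 211 were listed at 0 in a CTR library and 338 to 949 in a VPA library. Reads had no molecular identifiers, so several reads may come from 1 amplified molecule, and this was not tested. All 15 hepatocyte markers had counts, and their levels differed widely. Trf was at 1758 to 8931 CPM, Alb at 785 to 5066 CPM and Hnf4a at 41.6 to 186 CPM, while Asgr1 was at 0 in 5 of the 7 libraries and at 39.8 and 24.9 CPM in CTR replicate 2 and VPA replicate 4, Cps1 was at 0 to 22.9 CPM and Tat at 0 to 4.61 CPM.

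Of the 10 genes, 9 had a count in at least 1 library and 7 passed edgeR's filter on low counts, which left 10876 genes for testing. No member passed an adjusted p of 0.05 in edgeR's quasi-likelihood test with Benjamini-Hochberg adjustment over all genes, where 0.00919% of the genes tested passed, or in DESeq2, where 1.01% passed. The differences between the groups were nevertheless uneven among the members. Igfbp1 had a mean of 2407 CPM with VPA against 933 CPM without, Igfbp3 had 4.58 CPM against 24.6 CPM, and Igfbp7 had 150 CPM against 148 CPM. At an unadjusted p under 0.05, 1 of the 7 members tested was higher with VPA (Igfbp1) and 1 was lower (Igfbp3), beside 3.65% and 4.62% of all genes tested in those directions. Of the 7, 3 had a log2 fold change above 0 and 4 below 0. Their median was −0.25, beside −0.06 over all genes tested, of which 45.8% were above 0.

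**Figure D1:**
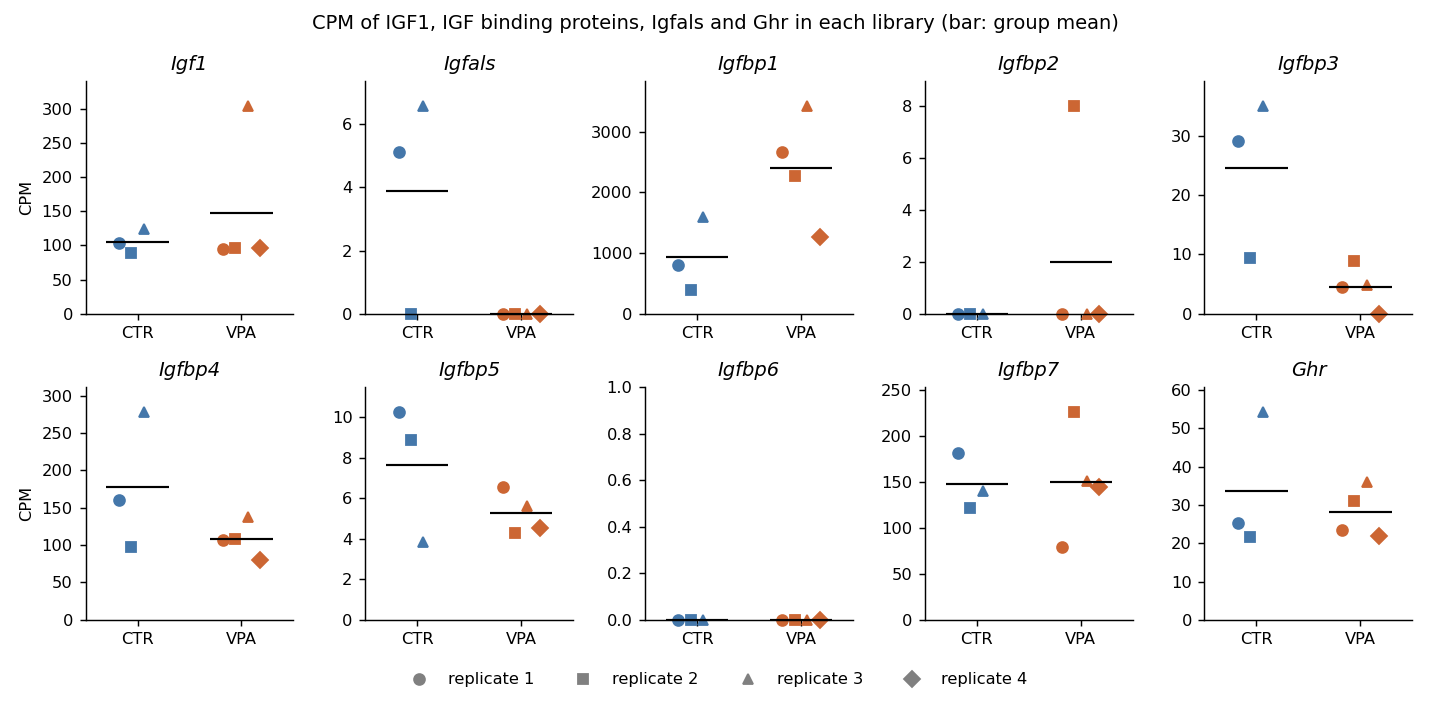
Level of each of the 10 genes in CPM (vertical axis, linear, starting at 0) in the 3 CTR (blue) and 4 VPA (orange) libraries, with 1 symbol for each replicate number and a bar at the group mean. Igfbp1 lies between 389 and 1600 CPM in CTR and between 1271 and 3424 CPM in VPA libraries, Igf1 stands at 304 CPM in VPA replicate 3 alone, and Igfbp6 has no count.

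In the CTR libraries, Igfbp1 was the most abundant of the 10, followed by Igfbp4 at 178 ± 91.9 CPM (SD, n = 3), Igfbp7 at 148 ± 30.8 CPM, Igf1 at 106 ± 17.6 CPM, Ghr at 33.7 ± 17.9 CPM, Igfbp3 at 24.6 ± 13.4 CPM, Igfbp5 at 7.65 ± 3.37 CPM and Igfals at 3.90 ± 3.46 CPM. The ranges of Igfbp4 and Igfbp7, of Igfbp7 and Igf1, of Ghr and Igfbp3, of Igfbp3 and Igfbp5, and of Igfbp5 and Igfals overlapped across libraries. Within the 3 CTR libraries, Igfbp7 was above Igf1 and Igfbp3 above Igfbp5 in all 3, while the order of the other overlapping neighbours differed between libraries. Igfbp1 and Igfbp4 did not overlap, and neither did Igf1 and Ghr. Among the genes tested, Igfbp1 ranked 84 by its mean CTR level and 18 by its mean VPA level. By mean VPA level the order after Igfbp1 was Igfbp7, Igf1, Igfbp4, Ghr, Igfbp5 and Igfbp3. The ranges of Igfbp7, Igf1 and Igfbp4 overlapped, and the mean of Igf1 rested on VPA replicate 3, since its median of 95.8 CPM was below the 107 CPM of Igfbp4. Igfbp3 was thus above Igfbp5 in the CTR order and below it in the VPA order, with overlapping ranges in both groups.

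Igfbp1 (ENSMUSG00000020429) codes for a protein and occupies bases 7197782 to 7202546 of chromosome 11 (GRCm38, + strand). Its neighbour Igfbp3 (ENSMUSG00000020427) occupies bases 7206086 to 7213923 on the − strand, so that the 3′ ends of the pair face each other across 3539 bases. Neither overlaps another annotated gene, and the pair holds the 2 members with an unadjusted p under 0.05, in opposite directions. Their upstream sequences are shown because this adjacent pair differed most in direction, beside that of Igfbp4. By mean CPM, Igfbp4 was the second most abundant binding protein gene of the CTR slices, although it was below Igfbp7 in CTR replicates 1 and 2. The sequences are from RefSeq on GRCm38.p6, written 5′ to 3′ on the strand of the gene, and end at the base before the annotated start. Capitals mark matches on either strand to 6 motifs: the forkhead motif TGTTTAC, the insulin response element core CAAAACA, the STAT5 motif TTCNNNGAA, the TATA box TATAAA, the hypoxia response core ACGTG and the HNF1 half-site GTTAAT.
Igfbp1, chr11:7197537-7197781, + strand: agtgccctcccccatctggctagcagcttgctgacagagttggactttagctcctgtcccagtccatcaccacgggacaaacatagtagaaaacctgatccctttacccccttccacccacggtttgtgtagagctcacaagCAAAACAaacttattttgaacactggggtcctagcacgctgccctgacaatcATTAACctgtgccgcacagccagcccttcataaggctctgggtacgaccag
Igfbp3, chr11:7213924-7214173, − strand: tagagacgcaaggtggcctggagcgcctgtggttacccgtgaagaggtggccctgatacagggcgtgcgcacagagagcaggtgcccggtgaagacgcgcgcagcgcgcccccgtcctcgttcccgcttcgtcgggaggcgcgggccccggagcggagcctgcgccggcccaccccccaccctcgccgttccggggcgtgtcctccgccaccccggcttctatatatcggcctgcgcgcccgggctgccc
Igfbp4, chr11:99040994-99041243, + strand: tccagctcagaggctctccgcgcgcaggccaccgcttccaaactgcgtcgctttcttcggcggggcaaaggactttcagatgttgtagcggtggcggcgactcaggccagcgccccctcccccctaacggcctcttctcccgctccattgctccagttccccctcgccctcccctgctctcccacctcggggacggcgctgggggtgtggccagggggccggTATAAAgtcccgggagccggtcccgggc

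The Igfbp1 sequence held the insulin response element core at bases −108 to −102 from the RefSeq start, a motif found in 5.6% of 32536 promoter windows of 250 bases, and the HNF1 half-site on the reverse strand at −56 to −51, found in 6.47%. The Igfbp4 window held a TATA box at −28 to −23, found in 12.3%. The Igfbp3 window held none of the 6 motifs. None of these 3 windows held TGTTTAC, the forkhead motif as searched, or the STAT5 or hypoxia motif. These are found in 3.17%, 7.04% and 16.7% of windows. The base composition differed among them, with 53.2% G and C and 5 CpG in the 250 bases before the RefSeq start of Igfbp1 against 73.2% and 32 CpG for Igfbp3 and 69.2% and 22 CpG for Igfbp4. A match describes letters and not binding. Only the letters given for each motif were searched, so a window without them may still hold another form of a site. All 10 members had at least 1 window in the RefSeq table. The STAT5 motif occurred in 1 member gene, Igfals, at the first and the second of its 3 annotated starts (bases −236 to −228 and −58 to −50).

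Igfbp1, the hepatocyte binding protein of the fasting response, had 810, 389 and 1600 CPM in CTR replicates 1 to 3. In VPA replicates 1 to 4 it had 2659, 2276, 3424 and 1271 CPM. Replicates 1, 2 and 3 of the VPA group were above every CTR library, and VPA replicate 4 lay between CTR replicates 1 and 3. The fitted log2 fold change was 1.37 (standard error 0.50, 95% interval 0.21 to 2.53), with an unadjusted p of 0.0308 and an adjusted p of 0.555 from edgeR. DESeq2 gave 1.36 with an adjusted p of 0.196. The two-sided exact permutation p for the difference in log2 CPM was 0.0857, where 0.0286 is the smallest that 3 libraries against 4 allow. Slice culture numbers 71, 72 and 74 each appear in the labels of both a CTR and a VPA library. Within these numbers the VPA level was 2.14, 1.57 and 5.85 times the CTR level, although what the number marks is not given in the sources used here.

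The CTR library with the highest Igfbp1 level, replicate 3, also had the highest summed level of the 15 hepatocyte markers, at 23610 CPM. The sums ran from 8789 to 23610 CPM in CTR libraries and from 6107 to 20140 CPM in VPA libraries and overlapped, with 7 of 13 tested markers above 0 in log2 fold change and a median of 0.01. In VPA replicate 4, the VPA library with the least Igfbp1, the sum was the lowest of all 7 libraries. Per 1000 CPM of hepatocyte markers, Igfbp1 stood at 73.6, 44.3 and 67.8 CPM in CTR replicates 1 to 3, and at 162, 211, 170 and 208 CPM in VPA replicates 1 to 4. On this scale all VPA libraries were above all CTR libraries, with means of 61.9 ± 15.5 (SD, n = 3) and 188 ± 25.5 (SD, n = 4). With the mean log2 CPM of the 15 markers in place of their sum, the difference of Igfbp1 from the list was 1.60 to 3.16 in CTR and 3.44 to 4.62 in VPA libraries, again without overlap. These scales were chosen after the values were seen and carry no test.

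**Figure D2:**
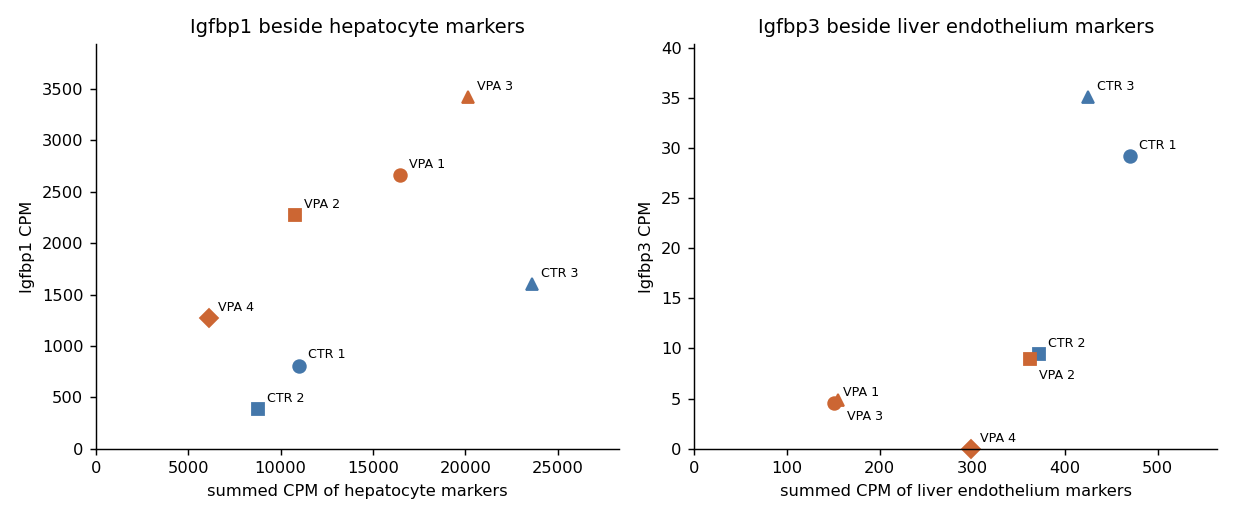
Left, Igfbp1 level (CPM) against the summed CPM of 15 hepatocyte markers. Right, Igfbp3 level against the summed CPM of 12 liver endothelium markers. Each point is a library, labelled by group and replicate, with CTR in blue and VPA in orange and both axes starting at 0. The ratio of Igfbp1 to the hepatocyte sum is 162 to 211 CPM per 1000 in VPA and 44.3 to 73.6 in CTR libraries, while CTR replicate 2 and VPA replicate 2 lie side by side for Igfbp3.

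Igfbp3, the main carrier of IGF1 in blood, had 29.2, 9.46 and 35.1 CPM in CTR replicates 1 to 3, from 74, 48 and 64 counts. In VPA replicates 1 to 4 it had 4.57, 8.92, 4.82 and 0 CPM, from 7, 29, 6 and 0 counts. Every VPA library was below every CTR library, although VPA replicate 2 was only just under CTR replicate 2. Igfbp3 was the 1 member of 7 tested that was separated in this direction, beside 7.41% of all genes tested, and no member had all VPA above all CTR libraries, beside 4.44%. The log2 fold change was −2.37 (standard error 0.98, 95% interval −4.66 to −0.09; unadjusted p = 0.0440 and adjusted p = 0.575 from edgeR), and the exact permutation p was 0.0571. At slice culture numbers 71 and 74 the VPA level was 0.137 and 0.942 times the CTR level, and at 72 the VPA library was at 0. The low counts in 3 VPA libraries limit the size of this difference. Summed over 12 liver endothelium markers, the level was 372 to 471 CPM in CTR and 151 to 363 CPM in VPA libraries, without overlap. Of the 11 endothelium markers tested, 9 were below 0 in log2 fold change, with a median of −0.58, and their part in the Igfbp3 difference was not tested. In bulk slices, fewer cells of a type and less RNA per cell cannot be told apart. Per 100 CPM of endothelium markers, Igfbp3 was at 2.54 to 8.26 CPM in CTR and 0 to 3.11 CPM in VPA libraries, which overlapped. Per 1000 CPM of 15 stellate cell and fibroblast markers it was at 4.66 to 9.38 CPM in CTR and 0 to 3.91 CPM in VPA libraries, without overlap. Both scales were chosen after the values were seen.

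Igfbp4 (ENSMUSG00000017493, chromosome 11, 99041244 to 99054392, + strand), which in most settings holds IGFs back until it is cleaved, had 160, 97.0 and 278 CPM in CTR replicates 1 to 3. In the VPA replicates it had 107, 108, 137 and 80.1 CPM. The groups overlapped, since CTR replicate 2 was below every VPA library but replicate 4. In edgeR the log2 fold change was −0.72 (standard error 0.35, 95% interval −1.55 to 0.11), with an adjusted p of 0.668. Igfbp4 and Igfbp1 were both highest in replicate 3 of each group, and both of these libraries carry slice culture number 71. The number of Igfbp1 counts per Igfbp4 count varied little among libraries of a group. It was 5.06, 4.01 and 5.76 in CTR replicates 1 to 3 and 24.8, 21.1, 24.9 and 15.9 in VPA replicates 1 to 4. This ratio needs no normalization across libraries, and the lowest VPA value was above the highest CTR value. It was chosen after its values were seen.

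Igfbp5 (ENSMUSG00000026185, chromosome 1, 72857932 to 72874884, − strand), a binding protein of mesenchymal cells that attaches to matrix, was near the detection limit. It had 10.2, 8.87 and 3.84 CPM in CTR replicates 1 to 3 and 6.53, 4.30, 5.62 and 4.53 CPM in the VPA replicates, from 6 to 45 counts. The groups overlapped through CTR replicate 3, with a log2 fold change of −0.55 (95% interval −2.17 to 1.06; adjusted p = 0.937 from edgeR). Igfbp7 (ENSMUSG00000036256, chromosome 5, 77349240 to 77408041, − strand), abundant in endothelium and activated HSCs, had 182, 122 and 140 CPM in CTR replicates 1 to 3. Its VPA values were 79.7, 226, 151 and 145 CPM, so that the VPA group held both the lowest and the highest library. The log2 fold change was 0.03 with a 95% interval of −0.74 to 0.80 (adjusted p = 0.994 from edgeR), a range that leaves changes in either direction possible. The 3′ end of Igfbp7 overlaps the end of Polr2b on the other strand, which had 1114 counts in all libraries together, and the strand setting of the counting is not given in the sources used here.

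The summed CPM of 15 stellate cell and fibroblast markers was 2029 to 4426 in CTR and 1643 to 3164 in VPA libraries and overlapped, with 9 of 14 tested markers below 0 in log2 fold change and a median of −0.53. Per 1000 CPM of these markers, Igfbp7 was at 37.4 to 60.1 CPM in CTR and 45.8 to 99.1 CPM in VPA libraries, and Igfbp5 at 1.03 to 4.37 and 1.43 to 3.97 CPM. Both overlapped between the groups. Per 100 CPM of endothelium markers, Igfbp7 was at 32.8 to 38.7 CPM in CTR and 48.6 to 97.4 CPM in VPA libraries, without overlap. These comparisons were chosen after the values were seen and carry no test.

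Igfbp2 (ENSMUSG00000039323) and Igfbp6 (ENSMUSG00000023046) were not measurable in most libraries and were not tested. Igfbp2, a hepatocyte product that lies 5457 bases from Igfbp5 on chromosome 1 (72824503 to 72852474, + strand), had 26 counts in VPA replicate 2 and 0 counts in the other 6 libraries. Those 26 counts were 7.99 CPM, and the 0 counts of the CTR group as a whole allowed up to 0.318 CPM. A difference between the groups was not detectable, because 3 of the 4 VPA libraries were also at 0. Igfbp6, which prefers IGF2 over IGF1 and lies on chromosome 15 (102144362 to 102149511, + strand), had no count in any library.

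Taking the 7 binding protein genes as a pool, the summed counts per library were 3023, 3179 and 3752 in CTR replicates 1 to 3 and 4375, 8555, 4637 and 1987 in VPA replicates 1 to 4. Igfbp1 made up 68.0%, 62.1% and 77.8% of these counts in the CTR libraries and 93.1%, 86.5%, 92.0% and 84.7% in the VPA libraries, so that all VPA shares were above all CTR shares. The share of Igfbp4 was 13.4% to 15.5% in CTR and 3.69% to 5.33% in VPA libraries, and that of Igfbp3 was 1.51% to 2.45% and 0% to 0.339%, both without overlap in the other direction. Igfbp7 took 6.80% to 19.5% and 2.79% to 9.66%, and Igfbp5 took 0.187% to 1.42% and 0.151% to 0.302%, with overlapping groups. Shares of a total depend on each other, and a larger share of Igfbp1 lowers the rest. Without Igfbp1, the summed level of the other binding protein genes was 237 to 457 CPM in CTR and 198 to 355 CPM in VPA libraries. The shares are a description and carry no test.

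**Figure D3:**
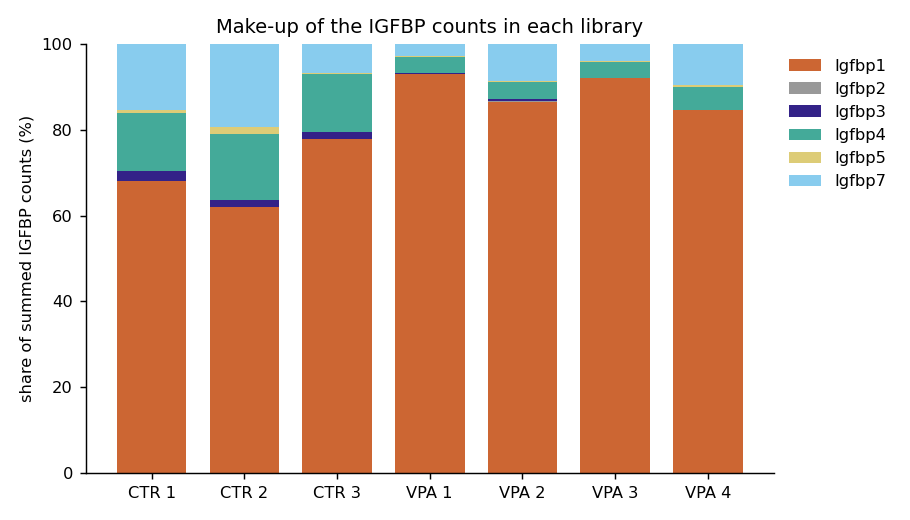
Share of each binding protein gene in the summed Igfbp1 to Igfbp7 counts (vertical axis, percent) for each library (horizontal axis), with colours for the genes. Igfbp1 fills 62.1% to 77.8% of the bar in CTR libraries and 84.7% to 93.1% in VPA libraries, and Igfbp4 fills 13.4% to 15.5% and 3.69% to 5.33%.

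Igf1 (ENSMUSG00000020053, chromosome 10, 87858265 to 87937042, + strand), the ligand, had 103, 89.5 and 124 CPM in CTR replicates 1 to 3. In VPA replicates 1, 2 and 4 it had 94.7, 95.6 and 95.9 CPM, and in VPA replicate 3 it had 304 CPM. The first group of 3 VPA values lay inside the CTR range, and VPA replicate 3 was above every other library. The log2 fold change was 0.48 (95% interval −0.59 to 1.55; adjusted p = 0.904 from edgeR) with all libraries and −0.15 without VPA replicate 3, so that its direction rested on that library. In VPA replicate 3 the hepatocyte markers summed to 20140 CPM, the highest of the VPA libraries, and the 12 macrophage markers to 327 CPM, near the 326 and 328 CPM of VPA replicates 2 and 1. Their part in the Igf1 value was not tested. Of these macrophage markers, Adgre1 and Marco were at 0 in all libraries.

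Because Igf1 and Igfbp1 differed in how their libraries spread, the number of Igfbp1 counts per Igf1 count overlapped between the groups. It was 7.84, 4.35 and 12.9 in CTR replicates 1 to 3 and 28.1, 23.8, 11.3 and 13.3 in VPA replicates 1 to 4. VPA replicate 3, with the highest Igfbp1 level of all, had the lowest VPA ratio through its Igf1 level. A transcript of the other strand, Igf1os, overlaps the start of Igf1 and had 7 counts in all libraries together.

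Igfals (ENSMUSG00000046070, chromosome 17, 24865997 to 24882010, + strand), the partner of IGF1 and IGFBP3 in the blood complex, had 13, 0 and 12 counts in CTR replicates 1 to 3 and 0 counts in each VPA library. These were 5.12, 0 and 6.58 CPM in the CTR libraries. CTR replicate 2, the deepest library, also had no count, so the groups overlapped at 0, and the gene did not pass the filter. Pooled over libraries, the CTR level of 2.65 CPM was 6.49-fold the 0.408 CPM that 3 counts over the VPA group would give. This ratio was 14.0-fold without CTR replicate 2, 4.26-fold and 4.19-fold without CTR replicates 1 and 3, and 3.62-fold without VPA replicate 2. It allows for counting error of the VPA zeros only and takes the CTR counts as exact, so it is not a lower limit. Moreover, 338 to 949 genes that were well counted elsewhere were at 0 in a VPA library. The exact permutation p was 0.143, and DESeq2 gave an adjusted p of 0.796.

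Ghr (ENSMUSG00000055737, chromosome 15, 3317760 to 3583492, − strand), the receptor at the head of the pathway, had 25.2, 21.7 and 54.3 CPM in CTR replicates 1 to 3 and 23.5, 31.1, 36.1 and 21.9 CPM in VPA replicates 1 to 4. The VPA values all lay inside the CTR range, which was set by CTR replicate 3. The log2 fold change was −0.25 (95% interval −1.17 to 0.67; adjusted p = 0.945 from edgeR) and 0.24 without CTR replicate 3. Per 1000 CPM of hepatocyte markers, Ghr was at 2.29 to 2.47 CPM in the CTR libraries and 1.43 to 3.59 CPM in the VPA libraries.

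**Figure D4:**
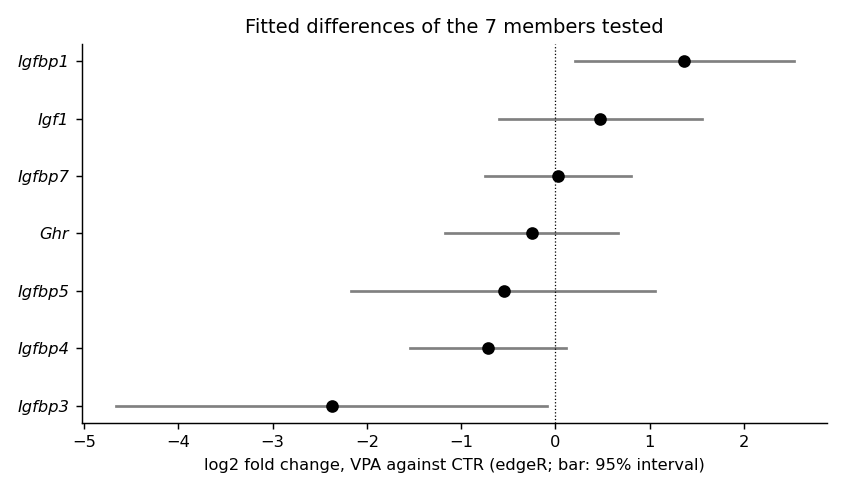
Fitted log2 fold change of VPA against CTR (horizontal axis) for the 7 members tested, from edgeR, with the 95% interval as a bar and a dotted line at no difference. The intervals of Igfbp1 (0.21 to 2.53) and Igfbp3 (−4.66 to −0.09) lie on 1 side of 0 before adjustment over all genes, and the other 5 intervals include 0.

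The rest of the pathway was read from 7 lists of 93 genes in all, of which 68 were tested. None passed an adjusted p of 0.05 in edgeR. For the list counts that follow, an unadjusted p under 0.05 was found for 3.65% of all genes tested on the higher and 4.62% on the lower side, and 4.44% had all VPA above and 7.41% all VPA below all CTR libraries. The genes of a list that are described were picked by their p, apart from those named for counts of 0, which were chosen after their values were seen. DESeq2 called 2 of 77 with an adjusted p, Mmp14 and Cited2, both lower with VPA, or 2.6% beside 1.01% of all genes. Among 11 tested genes of growth hormone signalling, none had an unadjusted p under 0.05, with 4 above and 7 below 0 and a median log2 fold change of −0.20. The smallest p belonged to Socs2, a STAT5-driven inhibitor of the receptor, at 44.9, 57.4 and 65.8 CPM in CTR and 58.1, 32.3, 31.3 and 28.7 CPM in VPA libraries (log2 fold change −0.57, unadjusted p = 0.0984, adjusted p = 0.709 from edgeR). The groups overlapped through VPA replicate 1. Next came Ptpn1, Jak2 and Ptpn11, with log2 fold changes of 0.33, −0.62 and −0.20 and adjusted p-values of at least 0.753 from edgeR. Socs3, an inhibitor of JAK signalling that did not pass the filter, had 29, 0 and 20 counts in CTR libraries and 0 in every VPA library.

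Of the 10 tested genes among IGF ligands, receptors and adaptors, 4 were above and 6 below 0, with a median of −0.09, and none had an unadjusted p under 0.05. Igf1r, the receptor for IGF1, was at 74.9, 72.5 and 57.0 CPM in CTR and 91.4, 78.1, 87.5 and 134 CPM in VPA libraries, with all VPA above all CTR libraries (log2 fold change 0.52, 95% interval −0.01 to 1.05; unadjusted p = 0.0571 and adjusted p = 0.617 from edgeR). Insr, the insulin receptor, was at 47.7, 30.2 and 67.4 CPM against 26.1, 25.2, 40.9 and 29.4 CPM (log2 fold change −0.67, adjusted p = 0.671 from edgeR), with overlapping groups. Igf2r, which clears IGF2, had a log2 fold change of 0.45, and Irs2, an adaptor of both receptors, 0.35. Igf2, Insrr, Irs4 and Igf2bp3 had no count in any library, and Igfbpl1 had 20 counts in CTR replicate 2 alone.

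Among 9 tested IGFBP proteases and inhibitors, 3 were above and 6 below 0, with a median of −0.53, and 1 had an unadjusted p under 0.05. Mmp14, a membrane metalloproteinase, was at 308, 218 and 240 CPM in CTR and 106, 126, 115 and 142 CPM in VPA libraries, with no overlap (log2 fold change −1.06, standard error 0.18; adjusted p = 0.142 from edgeR and 5.84e-04 from DESeq2). Adamts1 was also without overlap, at 35.6 to 43.3 CPM in CTR and 21.7 to 34.6 CPM in VPA libraries (log2 fold change −0.53, adjusted p = 0.650 from edgeR). Ctsd, a lysosomal protease, had a log2 fold change of 0.24 with overlapping groups. In the list of IGFBP-related and CCN proteins, 2 of 4 tested genes were above and 2 below 0, with a median of 0.01. None had an unadjusted p under 0.05. The smallest p was that of Ccn2, a target of TGFβ and of YAP. It had 115 to 202 CPM in CTR and 125 to 318 CPM in VPA libraries, which overlapped.

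All 19 genes of PI3K, AKT and FOXO signalling were tested, with 13 above and 6 below 0 and a median of 0.32. An unadjusted p under 0.05 was found for 2 higher (Pdpk1 and Foxo1) and 1 lower (Akt2). Foxo1, the factor that insulin excludes from the nucleus, was at 34.7, 40.6 and 28.0 CPM in CTR and 47.7, 113, 55.4 and 52.9 CPM in VPA libraries, with no overlap (log2 fold change 0.97, adjusted p = 0.541 from edgeR). Pdpk1, the kinase that activates AKT, was at 74.1, 82.8 and 95.9 CPM against 180, 128, 132 and 144 CPM (log2 fold change 0.79, adjusted p = 0.295 from edgeR). Akt2, the main AKT of insulin action in liver, was at 49.3 to 85.1 CPM in CTR and 39.2 to 48.9 CPM in VPA libraries (log2 fold change −0.56, adjusted p = 0.575 from edgeR). Rps6kb1 was also lower in every VPA library, with a log2 fold change of −0.39.

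Igfbp1 belongs by its known control with the insulin-repressed FOXO1 target list. Of the 8 tested genes of this list, 5 were above and 3 below 0 in log2 fold change. At an unadjusted p under 0.05, 2 were higher (Ppargc1a and Pdk4) and 2 were lower (Cited2 and Trib1), each without overlap between the groups, and the median log2 fold change was 0.26. The summed level of the 10 genes of the list was 604, 482 and 553 CPM in CTR and 433, 363, 365 and 409 CPM in VPA libraries, all lower, but this rested on Cited2. Without it the sums were 223 to 244 CPM in CTR and 214 to 287 CPM in VPA libraries and overlapped. Ppargc1a, a fasting coactivator, was at 4.33, 3.35 and 10.4 CPM in CTR and 17.0, 18.8, 22.5 and 23.4 CPM in VPA libraries (log2 fold change 1.77, adjusted p = 0.447 from edgeR). Pdk4, which slows glucose oxidation, was at 9.46, 23.6 and 0 CPM against 78.4, 83.6, 24.9 and 86.1 CPM (log2 fold change 2.56, adjusted p = 0.571 from edgeR). Cited2 was at 238 to 382 CPM in CTR and 105 to 150 CPM in VPA libraries (log2 fold change −1.19, adjusted p = 0.154 from edgeR and 5.05e-04 from DESeq2), and Trib1 at 108 to 132 and 40.1 to 77.8 CPM (log2 fold change −0.92, adjusted p = 0.376 from edgeR).

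Of 9 tested male-biased liver genes that depend on growth hormone, 8 were above and 1 below 0, with a median of 0.75, and 1 had an unadjusted p under 0.05. Cyp7b1, a member of the list that did not pass the filter, had 7, 11 and 7 counts in CTR libraries and 0 in every VPA library. The gene with an unadjusted p under 0.05 was the major urinary protein gene Mup7, at 127, 155 and 74.6 CPM in CTR and 357, 241, 158 and 150 CPM in VPA libraries (log2 fold change 0.93, adjusted p = 0.575 from edgeR), with VPA replicate 4 inside the CTR range. Mup3 was at 163 to 289 and 250 to 577 CPM (log2 fold change 0.75, adjusted p = 0.648 from edgeR). The Mup genes are near-identical copies, so the split of reads among them is uncertain. Elovl3, at 0 to 2.19 CPM in CTR and 0 to 22.9 CPM in VPA libraries, and Serpina3k, at 59.2 to 262 and 91.6 to 569 CPM, overlapped between the groups.

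**Figure D5:**
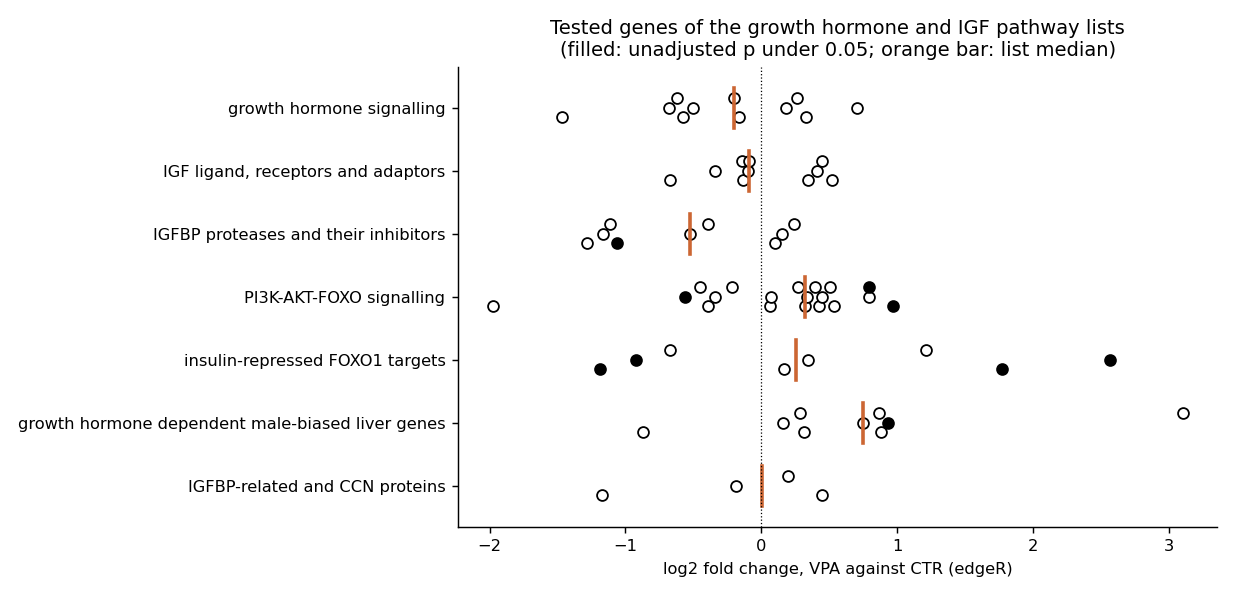
Log2 fold change of VPA against CTR (horizontal axis) for each tested gene of the 7 pathway lists (rows), with filled points for an unadjusted p under 0.05 and an orange bar at the list median. The medians run from −0.53 for the IGFBP proteases to 0.75 for the male-biased genes that depend on growth hormone, and the filled points of the FOXO1 target list lie on both sides of 0.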

How the data were processed

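The authors prepared QuantSeq 3′ libraries (single-end), trimmed the reads and, per the labels and the paper's methods, used STAR with GRCm38 and StringTie; the counting program, its strand setting and its treatment of multi-mapping reads are not given in the sources used here. The deposited values are raw, unnormalized read counts for each Ensembl gene in each library. Symbols and coordinates came from GENCODE M21 (GRCm38), which gave a symbol to 55227 of 55487 genes. R 4.3.3 with edgeR 4.0.16 (filterByExpr, TMM, robust quasi-likelihood fit, condition as the only term, Benjamini-Hochberg adjustment over all 10876 genes) gave the tests, with DESeq2 1.42.0 and limma-voom (limma 3.58.1) as alternatives. The 95% intervals of a log2 fold change used the unshrunk coefficient and the quasi-likelihood variance. Log2 CPM had a prior count of 2. The exact permutation p of a single value was two-sided and enumerated all 35 ways to assign the 7 libraries. The code was first tested on simulated data.

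The members and lists were chosen by name, with earlier results of these data known. All 10 members are named, and of each pathway list up to 4 tested genes with the smallest edgeR p, of which 1 is not reported here. Other settings are listed with the closing results. The tests did not pair libraries, and blocks by replicate or slice culture number were alternatives.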

Additional observations from a re-analysis of the deposited data

Results flagged for a closer look

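Of 21 sets of 4 VPA values examined (levels and shares of the members, marker sums and library totals), 5 held a value far from the other 3, where chance gives about 1 in 20 (a share of 0.05). The level and the share of Igfbp2 are the same observation, and with the other 3 libraries at 0 its count stands apart by construction, so that the chance share does not apply to it. Igf1 was at 304.3 CPM in VPA replicate 3, against 94.7 to 95.9 CPM in the other VPA libraries. Igfbp2 was at 7.99 CPM in VPA replicate 2, or 0.304% of its IGFBP counts, and at 0 in the other VPA libraries. The total of VPA replicate 2 was 3102450 counts, against 1400887 to 1515954 in the others. The 12 macrophage markers summed to 567.9 CPM in VPA replicate 4, against 326 to 328 CPM in the others. A link between these values and the members' levels was not tested.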

How the results depend on the processing

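No member was called under any of the 16 alternatives, which were DESeq2, limma-voom, RLE and upper quartile normalization, 2 other filters, no robust dispersion, 2 replicate blocks and leaving out each of the 7 libraries. Igfbp1 kept its direction in all 16 (log2 fold change 0.99 to 1.98, lowest adjusted p 0.196, unadjusted p under 0.05 in 11), Igfbp4 in 16 (−1.03 to −0.27, unadjusted p under 0.05 in 3), and Igfbp3 and Igfbp5 in all 15 that tested them (−2.93 to −1.87 and −0.89 to −0.30). For Igfbp3 the unadjusted p was under 0.05 in 8 of the 15 and reached 0.242 in limma-voom, with 0.103 under the replicate block by replicate number and 0.155 by slice culture number. Igf1 turned to −0.15 without VPA replicate 3 (highest value 0.65) and Ghr to 0.24 without CTR replicate 3 (lowest −0.50). Igfbp7 was −0.0504 with no filter, −0.0440 with the replicate block by replicate number, −0.10, −0.03 and −0.24 without CTR replicates 2 and 3 and VPA replicate 2, and up to 0.24 elsewhere. Over all genes, the 1 call became 154 with DESeq2, 10 with no filter, 36 with at least 10 counts in every library (6652 genes tested), 0 with either replicate block, and 0 to 2 when a library was left out, with 2 without VPA replicate 2 or 4. Both replicate blocks rest on a shared number alone. Over all genes tested, deviations of same-numbered libraries correlated at −0.0539, 0.0546 and 0.107 for replicate numbers 1 to 3. They correlated at 0.107, 0.0256 and 0.0546 for slice cultures 71, 72 and 74. Replicates 2 and 3 of both groups carry slice culture numbers 74 and 71, so these pairs are in both lists. Such correlations over all genes do not decide whether a number marks 1 liver. Pathway genes went from 0 calls to 2 with DESeq2 and to 2 with at least 10 counts in every library. The cause was not tested. The median log2 fold change of all genes tested was −0.06 with TMM, −0.14 in limma-voom and −0.16 with no filter. The mean VPA share of Igfbp3 went from 0.157% to 0.0965% without VPA replicate 2, and the mean CTR share of Igfbp5 from 0.821% to 0.523% without CTR replicate 2. The ratio for Igfals of the CTR level to 3 counts over the VPA group ran from 3.62-fold to 14.0-fold. Its left-out libraries were added after the values were seen. Low counts limit Igfals, Igfbp2, Igfbp3 and Igfbp5, and Igfbp6 had none.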
